A study of Mus musculus with 3 samples.

Results

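In dorsal root ganglia, the clusters of sensory neuron cell bodies beside the spinal cord, 669 of 19259 nuclei with more than 1000 detected genes carried RNA of *Slc47a1*, *Slc26a7*, *Slc4a10*, *Tspan11* and *Rspo3*, and are called Slc47a1/Slc26a7 nuclei here. They were chosen by their counts of unique molecular identifiers (UMIs, which count RNA molecules). A nucleus was kept with 3 or more UMIs over these 5 genes, from at least 2 of them, when that sum was at least 2 times the UMIs summed over *Ccdc33*, *Pax9*, *Snap25*, *Scn9a*, *Prx*, *Bcan* and *Flt1*, which mark other fibroblasts, neurons, glia and endothelium. The 3 libraries came from L3 to L5 ganglia of wild-type C57BL/6 mice without injury or drug named in the labels. There was 1 adult library (3 months old) and 2 aged libraries (21 months old), made by PIP-seq, a single nucleus method without microfluidics. These ages are those of the sample labels, while the series' design text gives 12 months for the aged mice. The number of animals behind a library was not given in the sources used here. The p-values measure only the spread between these libraries, in the age test pooled over genes.

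Fibroblasts of a ganglion and its nerve build the endoneurium around axons, the perineurium that seals fascicles, and the outer sheaths that continue into the meninges of the spinal root. They secrete collagens and elastic matrix, present guidance and growth factors, and in barrier layers carry transporters that move ions and drugs. *Slc47a1* encodes MATE1, which exports organic cations in exchange for protons, *Slc26a7* an anion exchanger, and *Slc4a10* a sodium-coupled bicarbonate transporter. *Tspan11* encodes a tetraspanin membrane protein, and *Rspo3* a secreted R-spondin that strengthens Wnt signaling through Lgr receptors.

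Several facts of the libraries bear on every value below. The labels call all 3 libraries male, but *Xist*, the RNA of the inactive X chromosome, stood at 2837, 1922 and 2114 CPM (a gene's UMIs scaled per mega-UMI of the group's summed RNA) in the Slc47a1/Slc26a7 nuclei of the adult library, the first aged library and the second aged library. The Y-linked genes *Uty*, *Kdm5d* and *Eif2s3y* were at no more than 3.86 CPM in any of the 3, while *Ddx3y*, also Y-linked, was at 26.4, 13.5 and 19.8 CPM. The *Xist* level goes against the labelled sex in all 3 libraries, and the study's methods describe its aged mice as female. Adult and aged libraries also differed in free RNA, whose profile was taken from barcodes with under 100 UMIs. It made up about 12.6% of the UMIs of these nuclei in the adult library, 7.06% in the first aged and 5.16% in the second aged library. This share was scaled by neuronal markers, all taken as free RNA, so neuronal RNA from mixed nuclei would count in it. Adult *Malat1*, a nuclear long noncoding RNA, was at 52878 CPM against 22048 and 21666 CPM in the aged libraries, and was also higher in the adult library in the free RNA, at 27775, 14955 and 13375 CPM. The libraries held between 69045987 and 167664164 UMIs in all, and no barcode of a Slc47a1/Slc26a7 nucleus was shared between libraries.

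The promoters of a pair of marker genes and of a collagen gene that fell with age are shown for the letters at their start sites. RefSeq promoters (GRCm38.p6, 250 bases before the start to 50 after it) were matched for *Slc4a10* and *Tspan11* among the 5 markers, and the other 3 markers are named only. Capitals mark TGTTTA, the core letters that forkhead factors bind, and AGGTGT, the core of T-box sites, searched on both strands in the marker genes, and CCAAT, the box bound by NF-Y, searched on both strands in the collagen gene. The sequences run 5′ to 3′ on the gene's strand.
*Slc4a10*, chr2:62046265-62046564, plus strand: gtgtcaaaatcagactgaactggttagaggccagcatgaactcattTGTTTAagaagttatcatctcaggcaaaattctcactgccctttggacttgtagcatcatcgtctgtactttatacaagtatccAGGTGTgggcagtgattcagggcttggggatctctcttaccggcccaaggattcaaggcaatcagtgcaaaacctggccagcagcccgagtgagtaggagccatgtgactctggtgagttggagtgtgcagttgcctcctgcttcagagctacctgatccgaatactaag
*Tspan11*, chr6:127887372-127887671, plus strand: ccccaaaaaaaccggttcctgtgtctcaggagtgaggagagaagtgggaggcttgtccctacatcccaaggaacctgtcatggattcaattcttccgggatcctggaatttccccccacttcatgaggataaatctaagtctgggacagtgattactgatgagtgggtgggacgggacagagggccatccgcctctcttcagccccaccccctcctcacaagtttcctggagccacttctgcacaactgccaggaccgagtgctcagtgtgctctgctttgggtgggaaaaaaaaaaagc
*Col1a2*, chr6:4505368-4505667, plus strand: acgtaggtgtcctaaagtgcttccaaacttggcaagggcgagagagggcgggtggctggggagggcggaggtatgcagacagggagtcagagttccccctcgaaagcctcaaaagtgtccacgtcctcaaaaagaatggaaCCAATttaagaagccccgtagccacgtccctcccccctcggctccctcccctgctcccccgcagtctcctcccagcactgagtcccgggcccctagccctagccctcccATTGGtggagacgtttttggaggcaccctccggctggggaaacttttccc
The *Slc4a10* window held 1 match each of TGTTTA and AGGTGT, and a second *Slc4a10* promoter held none. The *Tspan11* window held no match of either, which says only that these letters are not in it. Of 32851 RefSeq promoters of this length, 13.4% held TGTTTA and 13.7% AGGTGT, and 37.4% held CCAAT. Of CCAAT *Col1a2* had 2 matches, while the promoters of *Col3a1*, *Sparc* and *Serpinh1*, which also fell with age, had none. Forkhead and T-box transcripts were present in these nuclei: *Foxp2* was at 1941, 2030.3 and 2088 CPM and *Tbx15* at 447, 845 and 994 CPM in the adult, first aged and second aged library. Values of the 3 libraries are given in this order throughout, and these letters are a description of the windows, not binding sites.

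The gate held 498 of 11518 nuclei in the adult library (4.32%, exact 95% binomial interval 3.96 to 4.71), 104 of 5130 in the first aged library (2.03%, 1.66 to 2.45) and 67 of 2611 in the second (2.57%, 1.99 to 3.25). The adult share was 1.88 times the mean of the aged libraries (2.30% ± 0.381, SD, n = 2), and both aged shares lay below it. Exact permutation of the 3 age labels gave a two-sided p = 0.333, the smallest that 1 library against 2 can reach, so no difference in share could be shown. Intervals cover counting error only, and fewer nuclei of a kind in the tissue and fewer that survived isolation cannot be told apart. The shares varied with depth: among nuclei with more than 2000 and up to 3000 genes, 9.16% of adult nuclei were in the gate against 2.97% and 4.29%, while above 3000 genes the shares were 1.70%, 1.36% and 1.77%. Up to 1500 genes they were 3.40%, 1.83% and 2.44%, and from there up to 2000 genes 4.70%, 2.45% and 2.39%. Median UMIs per Slc47a1/Slc26a7 nucleus were 3441.5, 4243.5 and 4900.0. For the nearest groups no such order was seen: *Ccdc33*/*Pax9* nuclei (141, with 2 or more UMIs of these genes) made up 0.764%, 0.624% and 0.804%, and other collagen fibroblast nuclei (1113, with 4 or more UMIs over *Pdgfra*, *Col1a1*, *Col1a2*, *Col3a1*, *Dcn* and *Lum*) 5.42%, 6.53% and 5.90%.

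**Figure D1:**
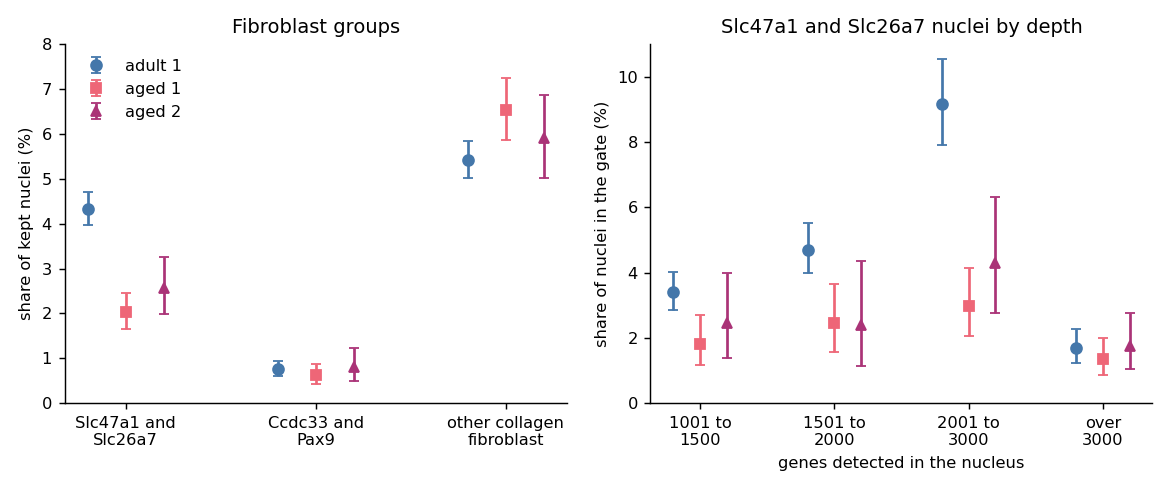
Share of kept nuclei (percent) for 3 fibroblast groups by library, left, and share of Slc47a1/Slc26a7 nuclei among nuclei of increasing gene number, right; points are libraries and bars exact 95% binomial intervals of counting error. The adult point at 4.32% lies above both aged points at 2.03% and 2.57%, and above 3000 genes the 3 intervals overlap.

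The 5 markers chose the nuclei, so their levels are a description. *Slc47a1* was detected in 96.2%, 84.6% and 91.0% of the nuclei and at 2404, 1924 and 2071 CPM of the summed RNA, against a UMI in 3.35%, 1.77% and 1.81% of the other kept nuclei. *Slc4a10* was found in 94.98%, 94.2% and 97.0%, at 2578, 2731 and 3729 CPM, and was the least selective marker, with a UMI in 14.9%, 13.5% and 17.8% of the other kept nuclei. *Tspan11* was detected in 88.4%, 75.0% and 70.1% of the nuclei and stood at 1078, 565 and 657 CPM. *Slc26a7* was the sparsest, in 52.8%, 58.7% and 55.2% of the nuclei at 343, 386 and 453 CPM. *Rspo3* was in 56.8%, 59.6% and 70.1% of the nuclei at 559, 554 and 796 CPM. A median nucleus held 25, 23 and 29 marker UMIs, and all 5 markers were seen together in 34.9%, 36.5% and 38.8% of the nuclei. Near the threshold, 14, 6 and 1 nuclei had exactly 3 marker UMIs, and 18, 5 and 4 nuclei with only 2 stayed outside. Nuclei of the nearest outside class had a UMI of the 6 fibroblast genes in 72.2%, 80.0% and 75.0% of cases, and those just inside in all cases. On GRCm38, *Slc47a1* lies at chr11:61343401-61378345, *Slc26a7* at chr4:14502430-14621805, *Slc4a10* at chr2:62046462-62326730, *Tspan11* at chr6:127887589-127953977 and *Rspo3* at chr10:29452416-29535867.

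The fibroblast label held against general markers, while the markers of each nerve layer stood at mixed levels. At least 1 UMI of the 6 fibroblast genes was present in 93.0%, 94.2% and 92.5% of the nuclei, compared with 52.1%, 55.6% and 48.3% of the other kept nuclei. The 10 fibroblast markers summed to 3202, 2185 and 2496 CPM, none was at 0, and over all kept nuclei they summed to 426, 344 and 267 CPM. *Dcn*, the small proteoglycan decorin, was at 403, 386 and 323 CPM here, at 2034, 1927 and 1790.0 CPM in *Ccdc33*/*Pax9* nuclei and at 1815, 1233 and 1518 CPM in other collagen nuclei. *Pdgfra*, the receptor used to sort fibroblasts, was at 48.1, 104 and 116 CPM, the lowest of the 3 groups in the adult and second aged libraries. Both *Dcn* and *Pdgfra* helped to choose the other collagen nuclei, which raises their level there. Of 7 perineurial markers, 5 were below their level in *Ccdc33*/*Pax9* nuclei in every library: *Slc2a1*, the glucose transporter of the blood-nerve barrier, was at 10.6, 11.6 and 2.83 CPM against 176, 152 and 235 CPM, *Cldn1*, a tight junction claudin, at 14.3, 3.86 and 0 CPM against 270.4, 199 and 314 CPM, and *Tjp1*, the junction scaffold ZO-1, at 225, 363 and 207 CPM against 584, 562 and 720.3 CPM, with *Itgb4* and *Ocln* placed alike. *Perp*, a desmosomal membrane protein, was at 37.5, 9.65 and 5.67 CPM, which in the aged libraries rested on 5 and 2 UMIs, too few to place it against the comparison groups there. In the adult library it was above both, at 8.58 and 9.46 CPM. *Lypd2* was at 37.0, 1.93 and 5.67 CPM against 77.2, 17.6 and 0 CPM in *Ccdc33*/*Pax9* nuclei, on few UMIs in the aged libraries. Of the endoneurial markers, *Osr2* and *Wif1* were at 0 and at no more than 1.93 CPM, and *Sox9* and *Etv1* were below both comparison groups in every library. *Abca9*, a lipid transporter, was at 88.8, 133 and 110.5 CPM, below the 172, 163 and 308 CPM of other collagen nuclei. Of the adventitial markers, *Sfrp2* had no UMI in any library, but only 4, 5 and 9 UMIs in all kept nuclei. *Tnxb*, tenascin X, was at 247, 229.7 and 189.8 CPM and *Pi16*, a peptidase inhibitor, at 102, 278 and 178 CPM. *Pi16*, unlike *Tnxb*, was above both comparison groups in every library. *Pcolce2* was below other collagen nuclei in every library. *Dpp4*, *Clec3b*, *Dpt* and *Cd34* were neither above both comparison groups throughout nor below both. In the Slc47a1/Slc26a7 nuclei 3 counts correspond to 1.59, 5.79 and 8.50 CPM. Of 11 leptomeningeal and arachnoid markers, *Zic1*, a zinc finger regulator of meninges, was at 327, 448 and 394 CPM, whereas *Slc22a6* and *Tbx18* were at no more than 1.93 CPM. *Foxc1*, a forkhead gene of the meninges, was at 125, 139 and 113 CPM, and at 116, 135 and 150 CPM in *Ccdc33*/*Pax9* nuclei. *Zic1*, *Cdh1* and *Crabp2* were above both comparison groups in every library, and *Slc6a13* and *Tbx18* below both. The rest held neither place in every library. *Cdh1*, at 187, 131 and 122 CPM, was near its level in all kept nuclei, at 154, 142 and 142 CPM, and below it in both aged libraries. In no nerve layer's list were all markers above both comparison groups, and the nuclei are called by their genes only. All 7 perineurial markers had UMIs in the adult and first aged library. RNA of other types was present at lower levels: 8 neuronal markers summed to 1180, 917 and 657 CPM, and 5 myelinating Schwann markers to 785, 274 and 99.2 CPM.

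Beyond the markers, 144 of 3711 genes at 50 CPM or more in every library were over 2-fold above both comparison groups in all 3 libraries, and the count was also 144 when comparison levels under 3 counts were raised to 3 counts. These ratios are a description without a test. *Slc47a2*, the second MATE exporter, was at 499, 504 and 510.0 CPM in Slc47a1/Slc26a7 nuclei, at 8.58, 0 and 0 CPM in *Ccdc33*/*Pax9* nuclei and at 10.51, 6.55 and 1.13 CPM in other collagen nuclei. The gene begins 540 bases past the end of *Slc47a1* on the same strand (chr11:61301631-61342860), and reads that run past *Slc47a1* or fit both related genes cannot be told apart in these counts. *Slc5a6*, the sodium-dependent multivitamin transporter, was at 99.4, 191 and 224 CPM against 7.89, 5.36 and 9.06 CPM in other collagen nuclei. *Slc38a1*, a glutamine carrier, was at 503, 289 and 391 CPM against 25.2, 19.1 and 9.06 CPM. *Col25a1*, a transmembrane collagen, was at 1961, 986 and 1332 CPM against 28.9, 30.4 and 14.7 CPM, and *Vsx1*, a homeobox gene known from the retina and cornea, at 53.4, 54.0 and 84.998 CPM with 0 UMIs in *Ccdc33*/*Pax9* nuclei of every library. *Ccn3*, a matricellular CCN protein, was at 200.4, 151 and 170.0 CPM against 15.8, 13.7 and 11.3 CPM. *Cit*, citron kinase, *Hs3st4*, a heparan sulfate sulfotransferase, *Rhobtb1*, *Tnfaip8l3* and *Rtl4* were placed alike, with lowest-library ratios between 9.39 and 18.9. These ratios were taken without raising comparison levels to 3 counts, so they can rest on fewer UMIs than that. The transcripts *Gm5860*, *Gm6260*, *Gm973* and *Gm26740* completed the leading 15. *Gm26740* is annotated antisense and *Gm973*, *Slc5a6*, *Hs3st4*, *Rhobtb1*, *Tnfaip8l3*, *Tspan11*, *Rspo3* and *Gm5860* overlap genes of the other strand, whose reads cannot be told apart because the strand setting was not given.

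**Figure D2:**
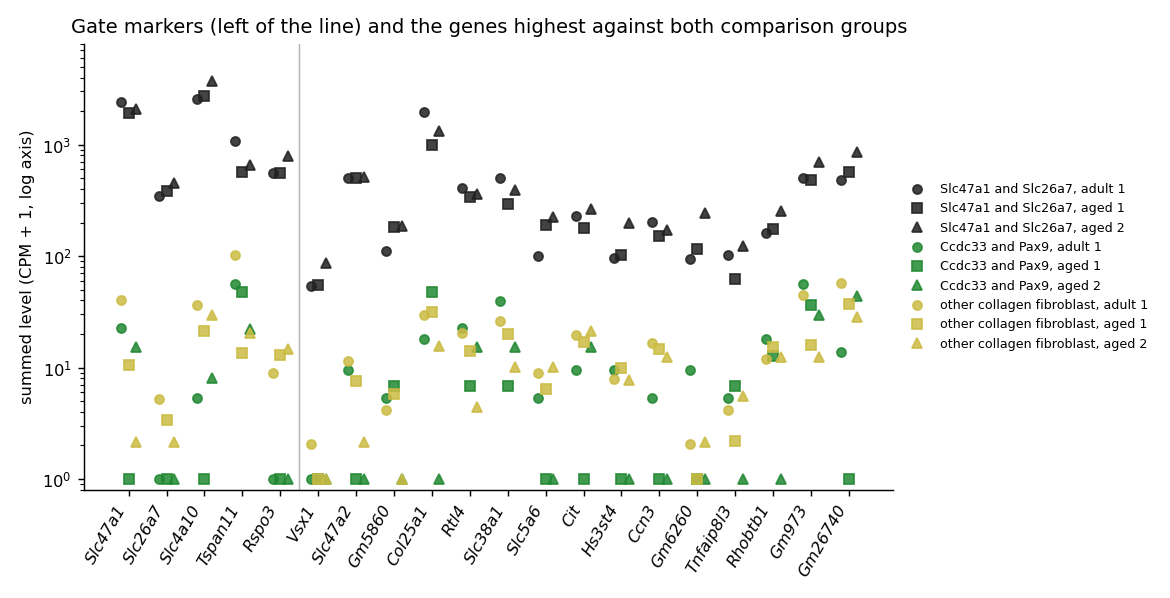
Summed level (CPM + 1, log axis) of the 5 gate markers, left of the line, and of the 15 genes highest against both comparison groups; symbols are libraries and colors the 3 groups of nuclei. Black symbols lie above the green and yellow ones for every gene shown.

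The remaining transport and signaling genes of the lists are named below for their level, chosen after their values were seen. Apart from *Tcf7l1*, they are set against *Ccdc33*/*Pax9* nuclei alone, which does not place them against other collagen nuclei. *Slc26a2*, a sulfate transporter used for proteoglycan sulfation, was at 544, 342 and 382 CPM against 30.0, 35.1 and 57.1 CPM in *Ccdc33*/*Pax9* nuclei. *Slc4a4*, the electrogenic sodium bicarbonate cotransporter, was at 1277, 1031 and 1128 CPM against 356, 387 and 428 CPM. The efflux pumps *Abcb1a*, which encodes P-glycoprotein, and *Abcg2* were at 564, 619.5 and 595 CPM and at 297, 264 and 312 CPM, respectively, and in *Ccdc33*/*Pax9* nuclei at 167, 93.7 and 171 and at 124, 228 and 136 CPM. All 4 were higher in the Slc47a1/Slc26a7 nuclei in each library. Of the Wnt genes, *Tcf7l1*, a repressor of Wnt targets, was at 584, 481 and 663 CPM against 30.0, 82.0 and 35.7 CPM. In other collagen nuclei it was at 213, 142 and 214 CPM. *Bmper*, an extracellular BMP regulator, was at 523, 502 and 711 CPM against 60.1, 52.7 and 49.9 CPM in *Ccdc33*/*Pax9* nuclei. *Pcdh7*, a protocadherin, was at 1506, 1309 and 1584 CPM against 68.7, 70.3 and 14.3 CPM. *Col12a1*, a fibril-associated collagen, was at 641, 787 and 1179 CPM against 112, 46.9 and 14.3 CPM. The opposite order was seen for *Ebf2*, an early B cell factor of connective tissue, at 203, 444 and 133 CPM against 2141, 2618 and 2496 CPM, and for *Lama2*, a laminin chain, at 271, 409 and 547 CPM against 1596, 1365 and 1341 CPM.

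The nuclei were not uniform. Clustering gave 6 sub-clusters, which hold what the genes of the same nuclei gave and were not tested. The largest, 215 nuclei, was led by *Myoc* (myocilin), *Slit3*, a repulsive guidance ligand, *Plxna4* and *Eln* (elastin), with *Myoc* at 567 CPM inside and 78.1 CPM outside. The next, 207 nuclei, was led by *Col25a1*, at 4503 CPM inside and 452 CPM outside, with the sodium-proton exchanger *Slc9a2*, *Ildr2*, *Kcnb2*, *Prg4* (lubricin), *Msln* (mesothelin) and *Bmp4*. Fibroblast markers summed to 3250 CPM in the first and 1611 CPM in the other. A sub-cluster of 97 nuclei was led by *Rgs6*, *Magi1*, *Pax9* and *Fmo2*, and *Slc26a7* was detected in 32.0% of it. In one of 51 nuclei *Slc26a7* had no UMI, and its leading genes were *Ccbe1*, *Sfrp4*, *Pi16*, *Clec3b* and *Dcn*, with fibroblast markers at 10238 CPM. A group of 61 nuclei was led by *Grik1*, *Ptprc* and *Cntnap2*, genes of neurons and leukocytes, and one of 38 nuclei by *Adgrb3*, *Ptgds* and *Ptprz1*. The markers of other cell types summed to 7089 CPM in the first of these and 4339 CPM in the second, against 1299 to 2086 CPM in the other 4. The sub-cluster of 51 nuclei held 31 adult, 14 first aged and 6 second aged nuclei, and that of 38 held 34, 3 and 1, out of 498, 104 and 67 in all. From the summed counts alone, an age difference and a different mix of sub-clusters cannot be told apart for the genes that lead them. Values of *Pi16* and *Ptgds* with sub-clusters left out are given below.

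With age, 358 of 9870 tested genes differed in the summed counts of these nuclei (edgeR quasi-likelihood test, adjusted p under 0.05, 3.63% of those tested). Of these, 132 rose (1.34%) and 226 fell (2.29%), and 1139 genes had an unadjusted p under 0.05. The test compared 2 aged libraries with 1 adult library. The spread was estimated between the aged pair, pooled over genes, and taken to hold for the single adult library too. A gene's own spread between the aged libraries got no weight. Its SE and p-value thus do not measure how far apart its aged values lay, as for *Ptgds* at 208 and 22.7 CPM. With 1 adult library, a difference in its preparation or free RNA and a difference with age cannot be told apart. Of the 226 genes that fell, 198 were also lower in the free RNA of the aged libraries, and of the 132 that rose, 63 were higher there, against 50.8% of all tested genes that moved alike. With estimated free RNA subtracted, 209 of the 226 genes that fell could be tested, of which 206 kept their direction and 160 were called, and all 132 that rose kept theirs, of which 117 were called. A DESeq2 Wald test called 32 genes, and of 98 results on named genes 17 passed with it. Of the genes named below, *Igfbp5*, *Angpt1*, *Ntn1*, *Smoc1* and *Slc16a1* passed in 5 of 10 other settings, *Cadm2* and *Slc5a6* in 4, and *Fabp7* in 3 of 7.

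**Figure D3:**
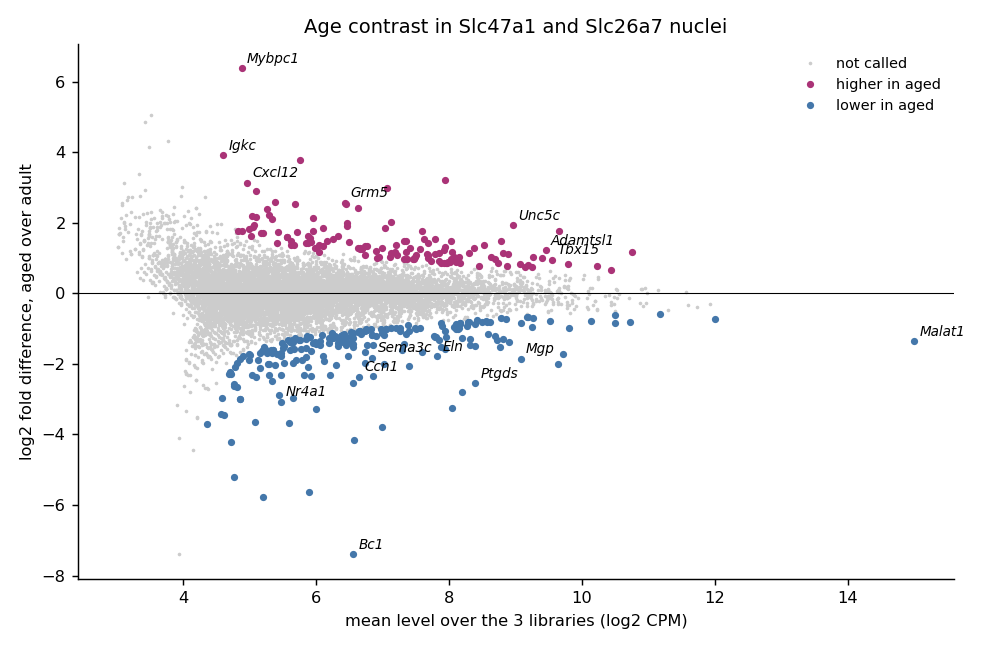
log2 fold difference, aged over adult, against mean level (log2 CPM) for the 9870 tested genes in Slc47a1/Slc26a7 nuclei, with called genes in color. The 132 genes that rose lie above 0 and the 226 that fell below it, with *Malat1* (log2 -1.36) at a high level.

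Elastic fiber and fibrillar collagen genes were among those lower in the aged libraries. Of 39 tested matrix glycoproteins and proteoglycans, 5 fell, 1 rose and 33 did not pass the test (15.4% called, beside 3.63% over all tested genes), with a median log2 difference of -0.24 beside 0.03 over all tested genes. *Eln*, elastin, was at 386, 135 and 99.2 CPM and fell by 1.78 on the log2 scale (SE 0.264, edgeR adjusted p = 5.77e-09). *Mgp*, matrix Gla protein, which restrains calcification, was at 972, 322 and 244 CPM and fell by 1.85 (SE 0.214, edgeR adjusted p = 4.21e-15). The adult value lay above both aged values in each. *Sparc*, a collagen-binding matricellular protein, was at 714, 279.8 and 246 CPM and fell by 1.52 (SE 0.224). *Loxl2*, a crosslinking lysyl oxidase, fell from 56.6 to 17.4 and 22.7 CPM, and *Mfap5*, a microfibril protein, was at 367, 228 and 173 CPM. *Smoc1*, a secreted SPARC-related protein, rose, at 309, 442 and 677 CPM (log2 0.76, SE 0.231). Of these 6, *Eln* overlaps *Gm30003* and *Loxl2* overlaps *Gm27177* on the opposite strand, whose reads cannot be told apart. Of 25 tested collagens, 4 fell (16.0%, beside 2.29% over all tested genes) and none rose, while 17 of the 25 had a log2 difference above 0 and the list's median was 0.31. *Col1a1*, the alpha 1 chain of type I collagen, was at 509.7, 187 and 204 CPM and fell by 1.47 (SE 0.241, edgeR adjusted p = 2.90e-07). *Col1a2*, whose promoter is printed above, was at 968, 548 and 646 CPM (log2 -0.78), *Col3a1* at 490.1, 247 and 359.8 CPM (log2 -0.79) and *Col25a1* fell by 0.84. In other collagen nuclei *Col1a1* was at 447, 492 and 499.6 CPM, but it helped to choose them, and the difference from these nuclei was not tested. In *Ccdc33*/*Pax9* nuclei *Col1a1* was at 348, 533 and 121 CPM. Against those, the age differences of *Col1a1*, *Col1a2* and *Col3a1* did not pass the edgeR interaction test (adjusted p = 0.932, 0.996 and 0.695). Of the 10 general fibroblast markers, 4 fell, namely *Col1a1*, *Col1a2*, *Col3a1* and *Mfap5* (40.0%, beside 2.29%), none rose and the median was 0.03. *Col1a1*, *Eln* and *Mgp* passed the test under all 10 other settings tried, whereas *Col1a2* passed in 6 and *Col3a1* in 5.

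Enzymes and inhibitors of the matrix went both ways: of 30 tested, 2 rose and 2 fell (13.3%, beside 3.63% over all tested genes). *Adamtsl1*, an ADAMTS-like protein without protease activity, was at 361, 779.7 and 1003 CPM (log2 1.22, SE 0.217, edgeR adjusted p = 4.18e-06) and passed in all 10 other settings. *Serpine2*, protease nexin 1, was at 52.9, 125 and 144 CPM and rose. *Adamts3*, which processes procollagen and VEGF-C, was at 176, 63.7 and 70.8 CPM and fell, and *Serpinh1*, the collagen chaperone HSP47, at 90.4, 34.7 and 36.8 CPM and fell. The gene *Sh3gl2*, an endophilin of neurons that rose, overlaps *Adamtsl1* on the same strand, and their reads cannot be told apart.

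Secreted growth factors and guidance genes changed in both directions. Of 28 tested growth factor genes 4 rose and 4 fell, and of 29 guidance genes 2 rose and 4 fell, which is 28.6% and 20.7% of them, beside 3.63% over all tested genes. *Igf1*, insulin-like growth factor 1, was at 125, 69.5 and 31.2 CPM and fell by 1.34 on the log2 scale (SE 0.348, edgeR adjusted p = 0.00654), and the IGF-binding proteins *Igfbp5* and *Igfbp6* fell from 1809 to 1179 and 1306 CPM and from 330 to 179 and 113 CPM. *Vegfc*, which drives growth of lymphatic vessels, rose from 12.7 to 52.1 and 42.5 CPM (log2 1.82, SE 0.518, edgeR adjusted p = 0.0179). *Cxcl12*, a chemokine that holds leukocytes and guides axons, was at 5.82, 32.8 and 82.2 CPM, which rested on 11, 17 and 29 UMIs, and rose by 3.13 on the log2 scale (SE 0.583). *Angpt1*, the Tie2 ligand that stabilizes vessels, was at 148, 249 and 329 CPM and *Pdgfd*, a PDGF ligand, at 155, 317 and 331 CPM, and both rose. The adult value lay outside both aged values for each of them. Among guidance genes, *Sema3c*, a class 3 semaphorin, was at 188, 83.0 and 22.7 CPM and fell by 1.83 (SE 0.324). *Ntn1*, netrin 1, at 780.4, 475 and 547 CPM, *Ntng1*, its membrane-anchored relative, at 222, 178 and 65.2 CPM, and *Efna5*, ephrin A5, at 729.7, 436 and 422 CPM, fell too. *Unc5c*, a netrin receptor, rose the most of this list, at 171, 442 and 943 CPM (log2 1.92, SE 0.242, edgeR adjusted p = 1.56e-12). *Unc5c* was also higher in the aged libraries of *Ccdc33*/*Pax9* nuclei, at 154, 562 and 727 CPM. *Nrp1*, the co-receptor of class 3 semaphorins and VEGF, was at 245, 469 and 547 CPM and rose. In other collagen nuclei *Sema3c* was at 85.7, 81.0 and 139 CPM, and it passed the edgeR interaction test against them (adjusted p = 1.13e-04). In the stricter collagen nuclei described below *Sema3c* was at 174, 49.4 and 198 CPM, with the first aged value below the adult value and the second above it.

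Of 31 tested BMP and TGF-beta genes, 3 fell and 1 rose (12.9%, beside 3.63%). *Bmp6*, a BMP ligand, was at 854, 486 and 442 CPM and fell by 0.96 (SE 0.208, edgeR adjusted p = 3.56e-04). *Id1*, an immediate target of BMP receptors, was at 184, 69.5 and 105 CPM and fell by 1.19, and *Fstl1*, a secreted BMP antagonist, was at 1271, 770.1 and 595 CPM and fell by 0.98. In other collagen nuclei *Bmp6* was at 249, 141 and 150 CPM, *Fstl1* at 918, 608 and 640 CPM and *Id1* at 18.9, 15.5 and 17.0 CPM. All were lower in both aged libraries there, *Id1* only slightly and on 36, 26 and 15 UMIs. None passed the edgeR interaction test against those nuclei, which does not show that they changed alike. In *Ccdc33*/*Pax9* nuclei *Id1* was higher in both aged libraries, at 21.5, 58.6 and 92.7 CPM from 5, 10 and 13 UMIs. There *Bmp6* was at 515, 445 and 613 CPM and *Fstl1* at 712, 551 and 542 CPM, and none passed that interaction test either. *Ccn2*, connective tissue growth factor, rose, at 32.8, 125 and 48.2 CPM (log2 1.37), but passed in only 4 of 10 other settings, where log2 ran from 0.55 to 1.53, the aged libraries differing between themselves by more than the lower aged value differed from the adult one. None of 22 tested Wnt genes passed the edgeR test, and the 2 of highest level were *Tcf7l2*, at 633, 953 and 853 CPM, and *Tcf7l1*, at 584, 481 and 663 CPM (log2 0.43 and -0.12). Of 16 tested clock genes 1 passed, a share of 6.25% near the 3.63% over all tested genes: *Rora*, a nuclear receptor that drives *Bmal1*, rose, at 961, 1687 and 1541 CPM (log2 0.67). Of the 2 tested endothelin genes neither passed: *Ednra*, the endothelin A receptor, was at 159, 239 and 178 CPM and *Ece1*, a converting enzyme, at 234, 127 and 167 CPM.

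Of 31 tested transcription factors of these tissues, 4 rose and 1 fell (16.1%, beside 3.63%). *Tbx15*, a T-box gene of limb and trunk mesenchyme, was at 447, 845 and 994 CPM (log2 0.96, SE 0.212, edgeR adjusted p = 5.44e-04). *Prrx1*, a mesenchymal homeobox gene, was at 375, 639 and 756 CPM, *Hoxc8*, a gene of trunk level identity, at 78.3, 199 and 176 CPM and *Eya1*, a transcriptional coactivator, at 165, 216 and 504 CPM, and all 3 rose. Both aged values lay above the adult value for these 4. *Klf4*, a zinc finger factor, was at 171, 83.0 and 70.8 CPM and fell by 1.22 (SE 0.313). The forkhead gene *Foxp2* did not pass the test (log2 0.00).

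**Figure D4:**
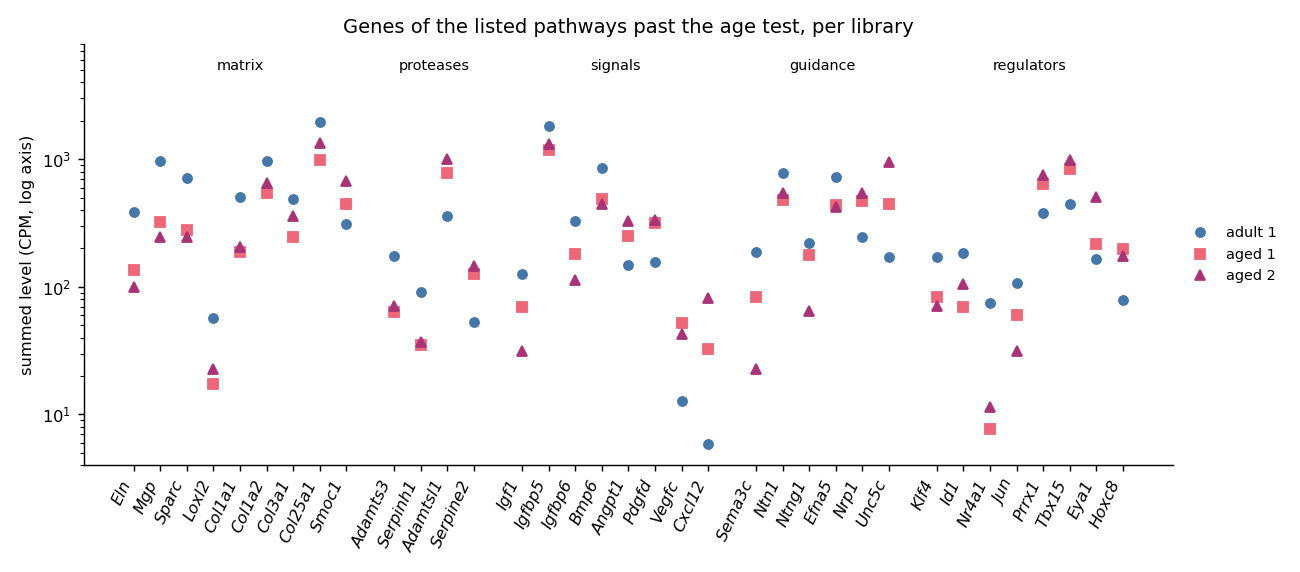
Summed level (CPM, log axis) per library of genes from the pathway lists that passed the age test in Slc47a1/Slc26a7 nuclei; symbols are the 3 libraries. For each gene shown, the adult symbol lies above both aged symbols or below both, from *Eln* at 386 against 135 and 99.2 CPM to *Cxcl12* at 5.82 against 32.8 and 82.2 CPM.

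Of 12 tested immediate early and heat shock genes, 5 fell (41.7%, beside 2.29% over all tested genes), none rose and 7 did not pass. All 12 had a log2 difference below 0 (median -1.02). *Nr4a1*, an orphan nuclear receptor induced within minutes of stimulation, was at 74.0, 7.72 and 11.3 CPM and fell by 3.07 (SE 0.504, edgeR adjusted p = 3.03e-07). *Jun*, an AP-1 subunit, was at 106, 59.8 and 31.2 CPM, *Jund* at 122, 54.0 and 56.7 CPM, and the chaperones *Hspa8* and *Hsp90ab1* were at 365, 237 and 187 CPM and at 564, 369 and 359.8 CPM. In the free RNA *Nr4a1* was at 17.3, 13.3 and 10.1 CPM and *Jund* at 127, 91.4 and 105 CPM, both lower in the aged libraries. There *Jun* was at 74.1, 141 and 125 CPM, *Hspa8* at 2285, 2665 and 2724 CPM and *Hsp90ab1* at 2406, 3432 and 3647 CPM, all 3 higher in the aged libraries. Beyond the subtraction of free RNA given above, the part of free RNA in the result was not tested. Of 13 tested inflammation genes 1 passed (7.69%, beside 3.63%): *Nfkbia*, the inhibitor of NF-kappaB, fell, at 208, 108 and 113 CPM. Interferon genes leaned the other way without a call: 24 of 28 tested were above 0, with a median of 0.63, and none passed the edgeR test. *Iigp1*, an interferon-induced GTPase, was at 63.4, 30.9 and 170.0 CPM, with the first aged library below the adult one. None of 10 tested class I antigen presentation genes passed either, with *H2-K1* at 108, 112 and 181 CPM and *B2m* at 95.7, 83.0 and 139 CPM. None of 8 senescence genes passed, and *Rb1* was at 186, 207 and 218 CPM and *Hmgb1* at 91.5, 124 and 82.2 CPM.

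Organic solute transport and junction genes were called at shares near the 3.63% over all tested genes. Of 23 tested organic solute transporters 1 passed (4.35%), and *Slc16a1*, the lactate carrier MCT1, fell, at 117, 56.0 and 48.2 CPM. *Slc5a6*, of the genes leading against both comparison groups, rose, at log2 0.97 (SE 0.293). The gene *Slc47a2* was at log2 -0.06 and did not pass. Of 27 cadherins and junction genes 2 passed (7.41%): *Dsp*, desmoplakin, fell, at 39.7, 5.79 and 8.50 CPM, and *Ctnna3*, an alpha catenin, fell, at 139, 61.8 and 45.3 CPM. The free RNA held *Dsp* at 539, 0.627 and 1.66 CPM, far higher in the adult library.

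The marker lists of nerve layers and other cell types held at most 8 tested genes each, and the counts below stand beside 3.63% called over all tested genes. Of 4 tested perineurial genes *Lypd2*, with 70, 1 and 2 UMIs, and *Perp*, at 37.5, 9.65 and 5.67 CPM, fell. The adult to aged ratio of *Lypd2* was 10.7, with a counting interval of 3.53 to 53.4. The adventitial gene *Pi16* rose (log2 1.09), as 1 of 5 tested. Its RNA was mostly in the sub-cluster of 51 nuclei, at 1072 CPM inside and 63.0 CPM outside, and in the 2 largest sub-clusters alone it was at log2 0.02 and did not pass (edgeR adjusted p = 0.992). *Pi16* passed in 5 of 10 other settings. Of 8 leptomeningeal genes *Ptgds*, prostaglandin D synthase, fell, at 680.0, 208 and 22.7 CPM (log2 -2.54, SE 0.243), and in *Ccdc33*/*Pax9* nuclei it was at 210.3, 287 and 1555 CPM (interaction, edgeR adjusted p = 0.0609). In other collagen nuclei *Ptgds* was also lower in both aged libraries, at 883, 127 and 335 CPM (interaction, edgeR adjusted p = 0.813). The free RNA held it at 393, 66.2 and 73.9 CPM. Its RNA was concentrated in the sub-cluster of 38 nuclei, 34 of them adult, at 3396 CPM inside and 151 CPM outside. Without the sub-clusters that held RNA of other types, this one among them, *Ptgds* was at log2 -2.76 and passed. *Fabp7*, of satellite glia, fell, at 38.6, 9.65 and 11.3 CPM, and *Cadm2*, an adhesion molecule of glia and neurons, rose, at 156, 399.5 and 269 CPM. *Ebf1*, listed for B cells and present in fibroblasts, rose, at 559, 1326 and 793 CPM, whereas the B cell genes *Cd79a* and *Ms4a1* were at no more than 5.82 CPM. No tested marker of neurons (6), non-myelinating Schwann cells (4), endothelium (2), mural cells (2), macrophages (2) or endoneurial fibroblasts (2) passed the test. Neuronal *Nefl* was at 404, 363 and 209.7 CPM and *Uchl1* at 255, 193 and 136 CPM. The others of highest level were *Cdh19* at 83.0, 96.5 and 65.2 CPM, *Scn7a* at 36.5, 59.8 and 42.5 CPM, *Cdh5* at 51.8, 67.5 and 65.2 CPM, *Pecam1* at 61.3, 30.9 and 36.8 CPM, *Rgs5* at 18.5, 17.4 and 22.7 CPM, *Notch3* at 12.7, 19.3 and 11.3 CPM, *Ptprc* at 28.0, 34.7 and 82.2 CPM, *Cx3cr1* at 16.9, 9.65 and 19.8 CPM, *Abca9* at 88.8, 133 and 110.5 CPM and *Etv1* at 28.6, 23.2 and 17.0 CPM.

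The largest falls with at least 20 UMIs were mostly of transcripts that were also lower in the free RNA of the aged libraries. *Bc1*, a neuronal noncoding RNA, had 388, 1 and 0 UMIs, an adult to aged ratio of 179 (counting interval 31.9 to 7076), and in the free RNA it was at 1125, 21.5 and 15.8 CPM. *Vmn1r30*, a vomeronasal receptor gene, had 85, 1 and 0 UMIs (ratio 39.1, interval 6.84 to 1564). *Gucy2c*, the guanylin receptor, had 80, 2 and 0 UMIs (ratio 18.4, interval 4.94 to 155), and 0 UMIs in *Ccdc33*/*Pax9* nuclei. *Polr2l*, an RNA polymerase subunit, had 68, 2 and 1 UMIs (ratio 10.4, interval 3.42 to 51.9). *Ndufs5*, of complex I, *Entpd4*, a Golgi nucleotidase, and *Prlr*, the prolactin receptor, were at log2 -3.01, -3.27 and -2.99. *Entpd4* has a related neighbor, *Entpd4b*, with which counting could split its reads. *Bc1*, *Vmn1r30*, *Polr2l*, *Ndufs5*, *Entpd4* and *Prlr* were each lower in the aged libraries in the free RNA as well. The long noncoding RNA *Gm48594* fell, at 196, 13.5 and 8.50 CPM, as did the mitochondrial *mt-Co3* at 504, 392 and 204 CPM and *Gm27177* at 65.6, 1.93 and 0 CPM. *Meg3*, also a long noncoding RNA, fell, at 760.3, 405 and 207 CPM, but changed direction with free RNA subtracted (log2 8.98). With *Malat1*, *Bc1* and *Dsp*, the genes *Gm48594*, *mt-Co3*, *Gm27177* and *Meg3* made up the 7 that fell of 11 tested transcripts listed as reporters of free RNA (63.6%, beside 2.29% lower over all tested genes). The list was chosen with earlier results of these data known, so its share is a description. Adult *Malat1* and *Meg3* were at 50034 and 9217 CPM in all kept nuclei, above their 27775 and 6111 CPM in the free RNA. *Xist* fell too (log2 -0.58).

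The largest rises had a lower adult level. *Mybpc1*, a myosin-binding protein, had 1, 21 and 28 UMIs and was at 0.529, 40.5 and 79.3 CPM, a level not reached in the comparison nuclei. *Grm5*, a metabotropic glutamate receptor, was at 21.1, 154 and 110.5 CPM (log2 2.57, SE 0.391, edgeR adjusted p = 1.86e-08) and at 8.94, 22.03 and 2.27 CPM in other collagen nuclei. *Slc8a3*, a sodium-calcium exchanger, was at 22.2, 100.4 and 176 CPM (log2 2.52). *Rasgrf1*, a Ras exchange factor, was at 26.4, 168 and 130.3 CPM (log2 2.42), and *Clvs2*, clavesin 2, at 10.6, 73.3 and 62.3 CPM (log2 2.59). *Sh3gl2* was at 13.2, 96.5 and 65.2 CPM (log2 2.54). In *Ccdc33*/*Pax9* nuclei these 6 genes were at 0 to 57.1 CPM, and *Sh3gl2* was higher in the aged libraries there too, at 12.9, 46.9 and 57.1 CPM. *Igkc*, the kappa light chain of antibodies, had 5, 30 and 10 UMIs and was at 14.0, 104 and 155 CPM in the free RNA, also higher in the aged libraries. The entries listed only by identifier, ENSMUSG00000079190 and ENSMUSG00000079808, rose and were at 6.34, 86.8 and 102 CPM and at 7.40, 42.5 and 79.3 CPM.

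Whether age differences of these nuclei differed from those of the nearest fibroblast nuclei was tested by an interaction term. Against *Ccdc33*/*Pax9* nuclei 7 of 8749 genes passed (0.0800%), and against other collagen nuclei 231 of 13923 (1.66%). The first comparison rested on 88, 32 and 21 nuclei and was sensitive to settings, with 0 to 24 genes called. *Vwc2*, a secreted BMP regulator, was at 127, 307 and 323 CPM in the Slc47a1/Slc26a7 nuclei and at 180.2, 11.7 and 21.4 CPM in *Ccdc33*/*Pax9* nuclei. It was thus higher with age in the first and lower in the second (log2 difference of the age effects 4.73, SE 0.641, edgeR adjusted p = 7.19e-04). Both aged *Ccdc33*/*Pax9* values were at or below 3 counts, which would be 17.6 and 21.4 CPM in these libraries. *Opcml*, an adhesion molecule, was at 113, 245 and 272 CPM against 249, 35.1 and 107 CPM, again in opposite directions. *Gria4*, an AMPA receptor subunit, was at 57.6, 98.4 and 93.5 CPM against 150.2, 11.7 and 7.13 CPM, the latter from 35, 2 and 1 UMIs. *Ccn1*, a matricellular CCN protein, was at 176, 44.4 and 25.5 CPM against 0, 52.7 and 71.3 CPM, where the adult *Ccdc33*/*Pax9* nuclei had 0 UMIs and 3 counts would be 12.9 CPM. *Fgf14*, an intracellular regulator of sodium channels, was at 70.3, 90.7 and 22.7 CPM against 755, 3555 and 2503 CPM. None of these 5 passed with DESeq2, with thinned nuclei, without nuclei of over 3 times the median UMIs (edgeR adjusted p = 0.0528 for *Vwc2*) or without the sub-clusters that held RNA of other types (adjusted p = 0.0639 to 0.159). Each kept its direction in these settings, with *Vwc2* at 4.37 to 4.82, *Opcml* at 2.26 to 3.22 and *Fgf14* at -2.59 to -1.77. With more than 2000 genes per nucleus the *Gria4* difference was 0.97 (edgeR adjusted p = 0.945), and in the 2 largest sub-clusters that of *Fgf14* was -1.40 (adjusted p = 0.365).

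In the comparison with other collagen nuclei, those nuclei held Schwann cell RNA, with *Cdh19* at 534, 1437 and 1284 CPM, and its part in the result was not tested. *Frmpd4*, a scaffold protein, was at 196, 569 and 592 CPM in Slc47a1/Slc26a7 nuclei and at 292, 111 and 56.6 CPM in other collagen nuclei (log2 difference of the age effects 3.32, SE 0.326, edgeR adjusted p = 4.03e-20). *Clic4*, an intracellular chloride channel protein, was at 660.4, 255 and 303 CPM against 92.0, 218 and 168 CPM. *Ank3*, ankyrin G, at 249.6, 84.9 and 87.8 CPM against 555, 1392 and 1298 CPM, and *Nkain2*, at 205, 160.2 and 119 CPM against 638, 2241 and 1907 CPM, were lower in both aged libraries in the first group and higher in both in the second. *Cntnap2*, a neuronal adhesion protein, was at 195, 469 and 125 CPM against 853, 194 and 138 CPM, and in the Slc47a1/Slc26a7 nuclei 1 aged value was above the adult one and 1 below it. With 205 stricter collagen nuclei (8 or more fibroblast UMIs and little RNA of other types) 41 genes passed, and of these 5 *Frmpd4* alone did, at 3.63 (SE 0.478).

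**Figure D5:**
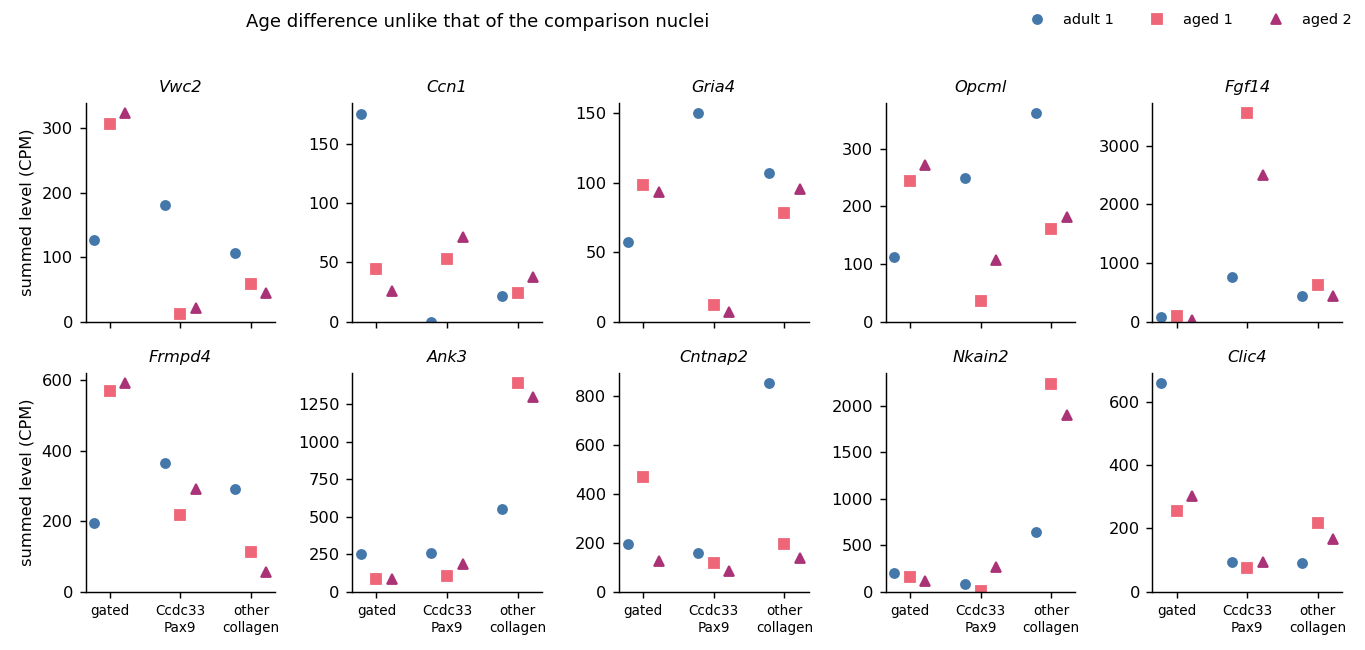
Summed level (CPM, linear axes from 0) of 10 genes in Slc47a1/Slc26a7 nuclei (gated), *Ccdc33*/*Pax9* nuclei and other collagen nuclei; symbols are libraries. *Vwc2* rises from 127 to 307 and 323 CPM in the gated nuclei and drops from 180.2 to 11.7 and 21.4 CPM in *Ccdc33*/*Pax9* nuclei. These aged *Ccdc33*/*Pax9* values are at or below 3 counts.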

How the data were processed

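Nuclei of L3 to L5 dorsal root ganglia were measured in 3 PIP-seq libraries (1 adult, 2 aged). The authors aligned and counted reads with Pipseeker on mm10 and deposited raw UMI counts per gene and barcode, with no filter seen; use of strand was not given in the sources used here. Libraries held 167664164, 95647106 and 69045987 UMIs, and 11518, 5130 and 2611 barcodes had more than 1000 genes. Of 32227 gene identifiers, 99.6% were found in GENCODE M21 (GRCm38). The members and gene lists were chosen with earlier results of these data known.

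Counts of gated nuclei were summed per library and tested with edgeR 4.0.16 (R 4.3.3; TMM, filterByExpr, quasi-likelihood test, Benjamini-Hochberg adjusted p under 0.05 over all genes tested); gate genes were not tested. Interactions used library as a block. CPM scale a gene's summed UMIs to the total of its group of nuclei. The share was tested by an exact permutation test (scipy 1.17.1). No doublet caller was run; nuclei over 3 times the median UMIs were left out as an alternative. Sub-clusters were made with scanpy 1.11.5 (1500 genes, 20 components, resolution 0.6). In counts simulated for the age contrast over 9881 genes, 87% of genes changed by 2 on the log2 scale were called. So were 20% of those changed by 1 and 0.031% of unchanged genes. For the interaction with *Ccdc33*/*Pax9* nuclei, over 9870 genes, the same shares were 22%, 1% and 0.021%. A gene that did not pass that interaction test was therefore not shown to change alike in both groups. In both simulations the changed genes were drawn from those of higher expected UMIs, so these shares do not hold for lower genes. Every gene was simulated with the same spread, taken from the age fit, and without a library difference in preparation or free RNA. The shares of unchanged genes called thus do not measure false calls in the real libraries.

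Named genes were the 5 gate markers, list members that passed the age test (or, where none did, the 2 of highest level), the 10 largest passing changes in each direction with 20 or more UMIs, the 15 leading genes against both comparison groups, and the 5 of smallest p in each interaction. Alternatives were DESeq2 1.42.0, other scaling and filters, stricter and deeper gates, thinning to 1000 UMIs and subtraction of free RNA. Sub-cluster and stricter collagen alternatives were chosen after seeing the data. A few named genes that this rule selects are not reported here.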

Additional observations from a re-analysis of the deposited data

Results flagged for a closer look

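The age effect of 5 genes differed between Slc47a1/Slc26a7 nuclei and *Ccdc33*/*Pax9* nuclei by the interaction test, with the smallest p among those that passed. The log2 difference of the age effects, the first group minus the other, was 4.73 for *Vwc2*, 4.63 for *Gria4*, 3.05 for *Opcml* and -2.41 for *Fgf14*. For *Vwc2* and *Gria4* it rested on aged *Ccdc33*/*Pax9* values at or below 3 counts. All 5 lost the call with DESeq2, with nuclei thinned to 1000 UMIs, without nuclei of over 3 times the median UMIs (edgeR adjusted p = 0.0528 to 0.986) and without the sub-clusters that held RNA of other types (adjusted p = 0.0639 to 0.159). Their direction stayed the same there, with *Vwc2* at 4.37 to 4.82 and *Opcml* at 2.26 to 3.22. All 5 kept the call with RLE scaling, without the filter on low counts, with the stricter gate and with free RNA subtracted. With more than 2000 genes per nucleus *Gria4* was at 0.97 (edgeR adjusted p = 0.945), and in the 2 largest sub-clusters *Fgf14* was at -1.40 (adjusted p = 0.365). For *Ccn1* it was -10.42, which depends on the prior count because the adult *Ccdc33*/*Pax9* nuclei had 0 UMIs, and is no bound.

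Against other collagen fibroblast nuclei, the differences were 3.32 for *Frmpd4*, -2.87 for *Ank3*, 2.79 for *Cntnap2*, -2.31 for *Nkain2* and -2.38 for *Clic4*. With the 205 stricter collagen nuclei the values were 3.63 for *Frmpd4* (edgeR adjusted p = 3.19e-10) and -0.73 for *Ank3* (adjusted p = 1), and *Cntnap2*, *Nkain2* and *Clic4* did not pass either. The cause of these differences was not tested.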

How the results depend on the processing

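No paired analysis was possible because the adult and aged groups share only replicate number 1. Without an aged library the fit compares 1 library with 1, which gives values with no test and no count of calls. The adult to aged ratio of shares was 1.68 and 2.13 without each aged library in turn, and over the other alternatives it ran from 1.30 to 2.22 and stayed above 1. The 358 genes called with age became 32 with DESeq2, 105 with more than 2000 genes per nucleus, 70 with nuclei thinned to 1000 UMIs (3334 genes tested) and 202 in the 2 largest sub-clusters. The 7 called against *Ccdc33*/*Pax9* nuclei became 0 with DESeq2 (41 at an unadjusted p under 0.05), 17 with RLE scaling, 22 without the filter on low counts, 21 with the stricter gate, 16 with more than 2000 genes, 1 with thinning, 20 with free RNA subtracted, 1 without nuclei of over 3 times the median UMIs, 0 by edgeR without the sub-clusters that held RNA of other types (362 unadjusted) and 24 in the 2 largest sub-clusters. The 231 called against other collagen nuclei became 2 with DESeq2, 101 with the stricter gate, 28 with more than 2000 genes, 1 with thinning and 41 with stricter collagen nuclei. Of 98 results on named genes, *Meg3* alone changed direction, to 8.98 with free RNA subtracted, and 81 no longer passed with DESeq2. The cause was not tested.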
